A study of Mus musculus with 51 samples.

Results

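Car4 and Car2 encode a pair of carbonic anhydrases, and their expression was described here by genotype and subfield in laser-captured cell layers of the mouse hippocampus. The genes were chosen by their signals in these same arrays, with earlier results known, and which comparison chose them is not stated. Every genotype and subfield difference of the members is therefore given as a description with an interval and without a p-value. The members are 2 of 11807 genes with a symbol of their own, and they have 3 of the 22626 probe sets tested: 1418094_s_at and 1448949_at for Car4 and 1448752_at for Car2. All were kept, without a filter on low signals, and each is shown separately.

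The study captured neuron layers of 3 subfields, the pyramidal cells of CA1, those of CA3 and the granule cells of the dentate gyrus (DG), and profiled them on 51 Affymetrix arrays, with 1 array per subfield from each of 17 mice. All mice were labelled female and 4.5 months old, and all came as littermates from a cross of a tTA line with a tau line that had different strain backgrounds. The 6 double negative (DN) mice carried neither transgene, and the 5 tTA mice carried only the tetracycline-controlled transactivator. The 6 rTg4510 mice carried the transactivator and the human tau transgene that it switches on, a tau with a proline-to-leucine change that causes frontotemporal dementia with parkinsonism. The transactivator was driven by the CaMKIIα promoter, which is active in forebrain excitatory neurons, and the tau gene lay behind a tetracycline-responsive element. No mouse with the tau transgene alone was analysed here, so that an effect of the tau transgene's insertion site cannot be told apart from that of tau itself. All carriers of the transactivator came from the same tTA line, so an effect of its insertion site cannot be told apart from that of the transactivator either. The study lists insertional mutagenesis, toxicity of the tTA protein and interference with transcription as possible reasons why tTA mice differ from DN mice. Mice are numbered within their genotype in the order of the labels.

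Carbonic anhydrases are zinc enzymes that interconvert carbon dioxide and water with bicarbonate and a proton. Car4 (carbonic anhydrase 4) is held on the outer face of the plasma membrane by a lipid anchor, where it buffers the extracellular space, and in brain it is known from capillary endothelium and from neurons. Car2 (carbonic anhydrase 2) is the fast cytosolic enzyme, and in brain it is best known from oligodendrocytes and the choroid plexus. Both enzymes hand bicarbonate and protons to transporters in the membrane, among them the Slc4 bicarbonate carriers and the Slc9 sodium-proton exchangers.

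Some arrays went against their labels. In 5 arrays the signal of Prnp, the prion protein gene, went against the genotype label. It lay above 9 on the log2 scale in all other rTg4510 arrays and below it in all other DN and tTA arrays. The 5 are all arrays labelled DN mouse 4, the DG array of DN mouse 5 and the DG array of rTg4510 mouse 3. The RNA of the inactive X chromosome, Xist, was below 6 in 3 arrays against the female label, namely CA1 and CA3 of DN mouse 5 and the DG of rTg4510 mouse 3. All 51 arrays were kept under their labels, and the differences are also given without the 5 arrays and without the 7 that failed either check. Subfield markers were taken relative to each gene's mean over the 51 arrays, with 3 CA1, 2 CA3 and 4 DG genes measured. By that measure an array's own list was the highest of the 3 in 43 arrays, which were 17 of 17 in CA3, 17 of 17 in the DG and 9 of 17 in CA1. In DN arrays of CA1 the CA1 marker mean ran from 2.985 to 8.677. How purely the CA1 layer was captured was not tested, and the CA1 values below carry that limit. Array medians lay between 2.91 and 3.12, and the 3′ minus 5′ signal of Gapdh, a sign of RNA quality, between 1.62 and 3.63.

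At 1418094_s_at Car4 was higher in both genotypes that carry the transactivator than in DN mice, with intervals above 0 in all 3 subfields. At 1448949_at the means went the same way in each subfield. There the interval lay above 0 in 2 of 3 subfields for tTA and in 1 of 3 for rTg4510 mice. At 1418094_s_at in CA1 the signal was 2.12 higher in tTA mice and 2.72 higher in rTg4510 mice than in DN mice on the log2 scale, which is 4.35-fold and 6.57-fold. In no subfield did the interval of the difference between tTA and rTg4510 mice leave 0 at either Car4 probe set. Fewer cells of a type and less RNA per cell cannot be told apart in such captured layers.

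In CA1, the DN arrays at 1418094_s_at had a lowest signal of 4.96, a median of 5.36 and a highest of 7.16, the last of them the array labelled DN mouse 4. The tTA arrays were at 7.78, 8.08, 7.67, 6.73 and 8.41, and the rTg4510 arrays had a lowest signal of 7.37, a median of 8.54 and a highest of 8.71. All rTg4510 arrays lay above all DN arrays, and the tTA arrays overlapped the DN arrays only through DN mouse 4 and tTA mouse 4. The difference of rTg4510 from DN mice was 2.72 (SE 0.37, 95% interval 1.94 to 3.5, n = 6 and 6), and that of tTA from DN mice was 2.12 (SE 0.39, 1.30 to 2.94, n = 5 and 6). They were 3.03 and 2.43 without the 5 arrays, and without the 7 arrays 2.96 and 2.36, with no overlap of either genotype with DN mice. Here and below, a lack of overlap is a description only. The share of all probe sets that part the genotypes in this way was not computed, so nothing is read from it. Between rTg4510 and tTA mice the difference was 0.60 (SE 0.39, interval −0.22 to 1.42).

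In CA3 the Car4 differences at 1418094_s_at had the same direction. DN arrays ran from 5.27 over a median of 5.92 to 6.08, tTA arrays were at 6.04, 6.86, 6.54, 6.76 and 7.77, and rTg4510 arrays ran from 6.37 over 7.47 to 7.86. The rTg4510 and DN arrays did not overlap, and 4 of 5 tTA arrays lay above every DN array. The tTA mice were 1.02 higher than DN mice (SE 0.30, interval 0.39 to 1.65) and the rTg4510 mice 1.54 higher (SE 0.29, interval 0.93 to 2.14). The values without the 5 arrays were 1.08 and 1.60 and without the 7 arrays 0.97 and 1.49, and the tTA arrays then lay above all DN arrays as well. The rTg4510 mice were 0.52 above tTA mice (SE 0.30, interval −0.12 to 1.15).

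In the DG the labels bore most on the values. DN arrays at 1418094_s_at ran from 4.57 over a median of 5.43 to 7.57, tTA arrays were at 8.26, 7.40, 7.50, 8.37 and 8.35, and rTg4510 arrays ran from 5.74 over 7.43 to 8.82. The highest DN signals were those labelled DN mouse 4 (7.57) and DN mouse 5 (6.46), and the lowest rTg4510 signal was that labelled mouse 3 (5.74), which are the DG arrays whose Prnp went against the label. With all arrays the tTA mice were 2.18 above DN mice (SE 0.51, interval 1.10 to 3.27) and the rTg4510 mice 1.57 above them (SE 0.49, interval 0.53 to 2.6). Without the 5 arrays, which in the DG are the same arrays as without the 7, these differences were 2.80 and 2.5, and neither genotype overlapped DN mice. The rTg4510 mice were 0.62 below tTA mice with all arrays (SE 0.51, interval −1.70 to 0.47) and 0.29 below them without the 5.

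**Figure D1:**
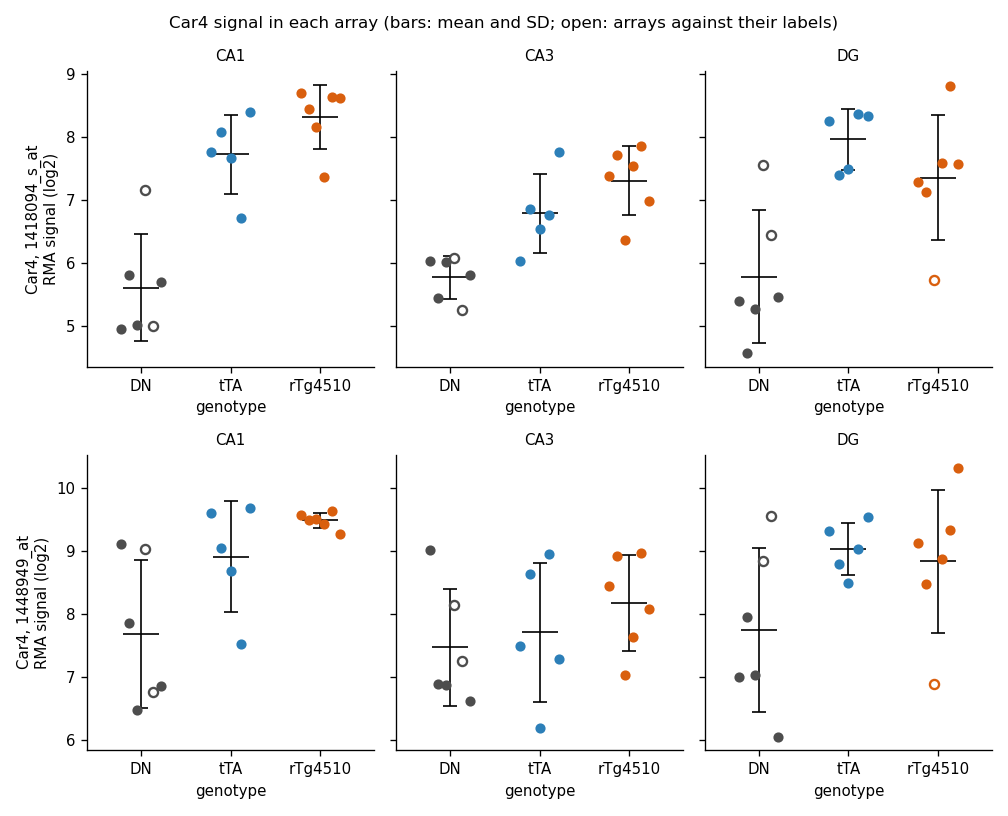
Log2 RMA signal of Car4 (vertical axes) by genotype (horizontal axes) in CA1, CA3 and the DG, at 1418094_s_at in the upper row and 1448949_at in the lower row. Each point is an array, bars are the mean and SD, and open points are the 7 arrays that went against a label. In the upper row most tTA and rTg4510 points lie above the DN points, while in the lower row the genotypes overlap more.

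The arrays that went against their labels were set beside Car4. In tTA arrays Prnp was as low as in the DN arrays that fitted their label, while Car4 at 1418094_s_at was higher. In DN mouse 4, Prnp was 10.44, 9.65 and 9.98 in CA1, CA3 and DG, and Car4 was 7.16, 6.08 and 7.57, in each subfield the highest DN signal. The CA3 signal of that mouse was close to the next DN array (6.03) and below every rTg4510 array of CA3, the lowest of which was 6.37. In the DG array of DN mouse 5, Prnp was 9.93 and Car4 6.46, which was below every rTg4510 DG array that fitted its label (lowest 7.14). In the DG array labelled rTg4510 mouse 3, Prnp was 7.34 and Car4 5.74, each the lowest rTg4510 signal of that subfield. Whether these arrays were exchanged was not tested.

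**Figure D2:**
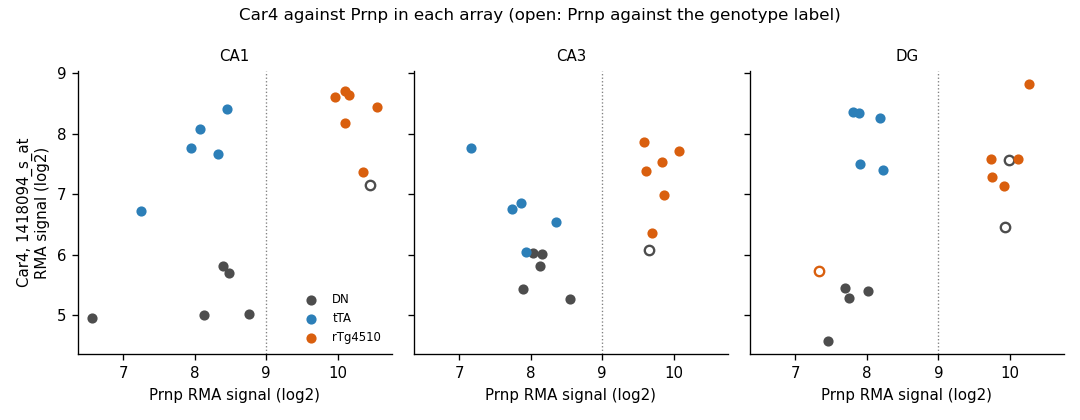
Log2 RMA signal of Car4 at 1418094_s_at (vertical axis) against that of Prnp (horizontal axis) in the 17 arrays of each subfield, coloured by genotype label. The dotted line is the Prnp signal of 9, and open points are the 5 arrays whose Prnp lay on the other side of it from their genotype.

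The other Car4 probe set, 1448949_at, gave differences in the same direction with wider spread. In CA1, DN arrays ran from 6.48 over a median of 7.36 to 9.12, tTA arrays were at 9.61, 9.06, 8.70, 7.53 and 9.69, and rTg4510 arrays ran from 9.28 over 9.51 to 9.64. All rTg4510 arrays lay above all DN arrays and within the range of the tTA arrays. The rTg4510 arrays were also the tightest group at this probe set, with an SD of 0.13 against 0.88 in tTA and 1.17 in DN mice. The difference from DN mice was 1.23 in tTA mice (SE 0.48, interval 0.22 to 2.24) and 1.81 in rTg4510 mice (SE 0.46, interval 0.84 to 2.77). It was 1.5 and 2.07 without the 5 arrays and 1.34 and 1.91 without the 7.

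In CA3 at 1448949_at, DN arrays ran from 6.62 over 7.08 to 9.03, tTA arrays were at 7.50, 8.63, 6.20, 8.95 and 7.29, and rTg4510 arrays ran from 7.03 over 8.27 to 8.98. The 3 genotypes overlapped throughout, and the highest signal was that of DN mouse 1, which passed both checks. The tTA mice were 0.24 above DN mice (SE 0.53, interval −0.87 to 1.36) and the rTg4510 mice 0.71 above (SE 0.50, interval −0.35 to 1.77). Leaving out the 5 or the 7 arrays gave 0.38 or 0.36 for tTA and 0.85 or 0.83 for rTg4510 mice, with 0 still inside each interval.

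In the DG at 1448949_at, DN arrays ran from 6.06 over 7.50 to 9.56, tTA arrays were at 9.32, 8.80, 8.50, 9.04 and 9.55, and rTg4510 arrays ran from 6.89 over 9.0 to 10.32. As at the other probe set, the highest DN signals were those labelled DN mouse 5 (9.56) and DN mouse 4 (8.85), and the lowest rTg4510 signal was that labelled mouse 3. The differences from DN mice were 1.29 in tTA mice (SE 0.60, interval 0.03 to 2.56) and 1.10 in rTg4510 mice (SE 0.57, interval −0.11 to 2.30). They became 2.02 and 2.22 without the 5 arrays, and no tTA or rTg4510 array overlapped a DN array. The difference of rTg4510 from tTA mice was 0.58 for CA1, 0.47 for CA3 and −0.20 for the DG, where it was 0.19 without the 5 arrays, each with 0 inside its interval.

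Both Car4 probe sets ranked the 9 groups with CA1 of rTg4510 mice highest, followed by the DG and the CA1 of tTA mice. At 1418094_s_at the 6 groups that carry the transactivator came before the 3 DN groups. The step from the lowest of the former, CA3 of tTA mice (6.80), to the highest DN group, the DG (5.79), was the only gap between neighbours that exceeded their pooled SD. The DN groups did not differ beyond their spread, at 5.79 in the DG, 5.78 in CA3 and 5.61 in CA1. At 1448949_at only CA1 of rTg4510 mice (9.49) stood further than the pooled SD from its neighbour, the DG of tTA mice (9.04), and CA3 of tTA mice (7.72) lay among the DN groups. Over the 51 arrays the probe sets correlated at r = 0.73, and at 0.57 once the 9 group means were removed, with library and RNA quality shared by both.

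Averaged over its 3 subfields, each mouse gave 1 Car4 value. At 1418094_s_at the DN mice lay between 5.28 and 5.66 apart from mouse 4 at 6.94, the tTA mice between 7.24 and 8.17, and the rTg4510 mice between 6.76 and 8.45, with mouse 3 lowest. At 1448949_at the DN mice lay between 6.51 and 8.68, the tTA mice between 7.80 and 8.84 and the rTg4510 mice between 7.81 and 9.32. The rTg4510 and tTA mice overlapped at both probe sets. The means of DN mouse 4, DN mouse 5 and rTg4510 mouse 3 include arrays that went against their labels. They were not recomputed without those arrays.

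Car2 followed another order, with rTg4510 mice highest in each subfield and tTA mice lowest in CA1 and the DG. The Car2 signal was 0.87 higher in rTg4510 than in tTA mice in CA1 and 1.24 higher in the DG, which is 1.83-fold and 2.35-fold, and both intervals left 0. In the DG the tTA mice were also 0.92 below DN mice. No interval of the difference between rTg4510 and DN mice left 0.

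In CA1, DN arrays of Car2 ran from 5.99 over a median of 7.36 to 8.54, tTA arrays were at 6.85, 7.64, 7.60, 7.04 and 6.62, and rTg4510 arrays ran from 7.38 over 8.24 to 8.49. Of the 6 rTg4510 arrays 4 lay above every tTA array, and the DN arrays spanned both other genotypes. The rTg4510 mice were 0.87 above tTA mice (SE 0.39, interval 0.04 to 1.70) and 0.72 above DN mice (SE 0.38, interval −0.08 to 1.51), and the tTA mice were 0.15 below DN mice (SE 0.39, interval −0.98 to 0.68). The lowest DN array was that labelled mouse 4. Without the 5 arrays rTg4510 mice were 0.46 above and tTA mice 0.42 below DN mice, and without the 7 arrays 0.33 above and 0.54 below.

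In the DG, DN arrays of Car2 ran from 6.86 over 7.40 to 8.72, tTA arrays were at 6.56, 6.86, 7.26, 6.27 and 6.04, and rTg4510 arrays ran from 6.52 over 7.96 to 8.65. All rTg4510 arrays but that of mouse 6 (6.52) lay above every tTA array, and 4 of 5 tTA arrays lay below every DN array. The rTg4510 mice were 1.24 above tTA mice (SE 0.39, interval 0.42 to 2.06), and the tTA mice were 0.92 below DN mice (SE 0.39, interval −1.74 to −0.10). Without the 5 arrays these differences were 1.32 and −1.10. In CA3 the genotypes overlapped, with DN arrays from 6.68 over 7.51 to 8.02, tTA arrays at 7.60, 7.98, 6.24, 7.02 and 8.84, and rTg4510 arrays from 7.06 over 7.77 to 8.79. Differences there were 0.32 between rTg4510 and tTA mice (SE 0.41, interval −0.56 to 1.19), 0.07 between tTA and DN mice and 0.38 between rTg4510 and DN mice, each with 0 inside its interval.

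**Figure D3:**
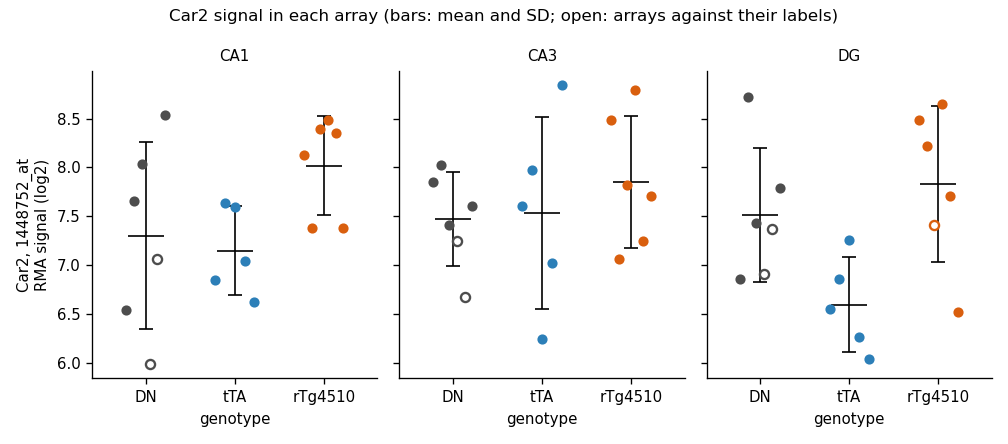
Log2 RMA signal of Car2 at 1448752_at (vertical axis) by genotype (horizontal axis), with a panel for each subfield. Each point is an array, bars are the mean and SD, and open points are the 7 arrays that went against a label. The tTA points of the DG, between 6.04 and 7.26, are the lowest group, and the genotypes overlap in CA3.

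Among the 9 groups, the 3 rTg4510 groups had the highest mean Car2 signals, with 8.02 for CA1, 7.85 for CA3 and 7.83 for the DG, and the lowest were the tTA groups of DG and CA1, at 6.60 and 7.15. Only the gap between these last exceeded the pooled SD of neighbours. Per mouse, averaged over subfields, Car2 lay between 6.78 and 7.49 in tTA mice, between 6.71 and 8.13 in DN mice and between 7.20 and 8.64 in rTg4510 mice. As for Car4, these means include the arrays that went against their labels. The rTg4510 mice with the highest Car2, mouse 4 (8.64) and mouse 1 (8.37), were not those with the highest Car4, which was mouse 5 at both Car4 probe sets. Over the 51 arrays Car2 and Car4 correlated at r = −0.05 at 1418094_s_at and −0.15 at 1448949_at, and at −0.18 and −0.26 once group means were removed.

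**Figure D4:**
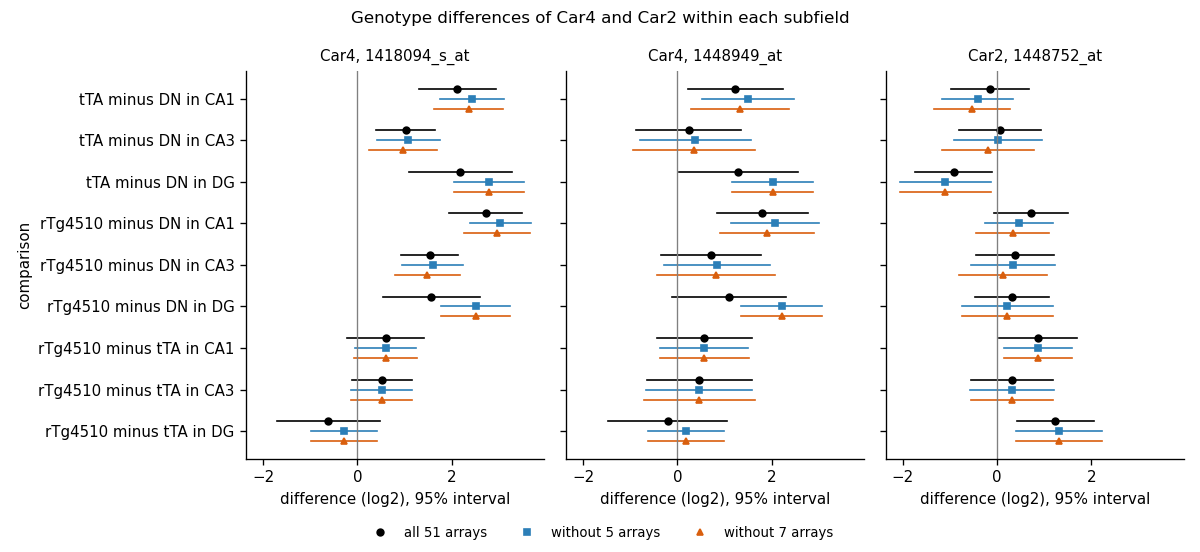
Differences of Car4 (left and middle) and Car2 (right) between genotypes on the log2 scale (horizontal axes) for each pair of genotypes and subfield (vertical axis). Points are differences of means and lines their 95% intervals, in black with all 51 arrays, in blue without the 5 arrays whose Prnp went against the label and in orange without the 7 that failed either check. The Car4 differences of tTA and rTg4510 from DN mice in the DG move furthest to the right without the 5 arrays.

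Across all probe sets, few genotype differences passed the test. At an adjusted p under 0.05 in limma, 1 probe set was called between rTg4510 and DN mice in CA1 (0.00442% of those tested), and it was Car4 at 1418094_s_at. Since the members were chosen from these data, nothing is read from that call or from the calls of members in the other fits below. The call in CA1 held in 4 of 17 fits that left out 1 mouse each and was lost in the other 13, where the difference lay between 2.59 and 2.76. Between rTg4510 and tTA mice in CA3 1 probe set was called (0.00442%), which is no member. In each of the other 7 genotype comparisons 0 were called (0%), with 892 to 1388 probe sets at an unadjusted p under 0.05, and Fisher's LSD test called 0 in all 9. Without the 5 arrays, Car4 at 1418094_s_at was the 1 probe set of 22626 called for tTA against DN mice in CA1. It was among 4 of 22626 for rTg4510 against DN mice in CA1, and among 13 and 16 for the same pairs in the DG. In the DG the arrays left out held the highest DN signals and the lowest rTg4510 signal of that probe set, so leaving them out widened those differences. With all arrays the main fit called no member in the DG. With all arrays and the mouse as a random block, a member was among the 3 probe sets called for tTA against DN mice in the DG. With 7 arrays left out, 0 were called for tTA against DN mice in CA1, and Car4 at 1418094_s_at was among 2 called for rTg4510 against DN mice in CA1 and again among 13 and 16 in the DG.

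Over all genotypes together, the Car4 mean was lowest in CA3 at both probe sets. At 1448949_at the means were 8.69, 7.80 and 8.51 in CA1, CA3 and DG, and CA1 exceeded CA3 in 14 of 17 mice by 0.89 on average (SE 0.28, interval 0.32 to 1.46). The DG exceeded CA3 in 13 of 17 mice, by 0.72 (SE 0.28, interval 0.15 to 1.29 in size). At 1418094_s_at CA1 exceeded CA3 by 0.58 (SE 0.23, interval 0.11 to 1.04), in 11 of 17 mice, and CA3 was 0.37 below the DG, with 0 inside that interval. CA1 and DG differed by 0.17 and 0.21 at the Car4 probe sets. By genotype, the means at 1418094_s_at in CA1, CA3 and DG were 5.61, 5.78 and 5.79 in DN mice, 7.73, 6.80 and 7.97 in tTA mice, and 8.33, 7.31 and 7.36 in rTg4510 mice. In DN mice the CA1 mean was thus not above the CA3 mean at that probe set, and whether the subfield difference varied with genotype was not tested. Car2 means were 7.51, 7.63 and 7.36 in the same order, and no interval of a difference left 0. None of the 3 probe sets was among the 1059 called between CA1 and CA3 (4.68%), the 2474 between CA1 and DG (10.9%) or the 3137 between CA3 and DG (13.9%). Without the 5 arrays CA1 exceeded CA3 by 0.89 and 0.55 at 1448949_at and 1418094_s_at. Without the 7 arrays, Car4 at 1448949_at was called between CA1 and CA3, at a difference of 0.98. With all arrays a member was also called between CA1 and CA3 with an intensity trend and with a filter at the 40th percentile. Fits that left out each mouse in turn called 0 to 1 members between CA1 and CA3 and between CA3 and DG.

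The 14 other carbonic anhydrases on the array, with 16 probe sets, gave 0 calls between genotypes in any of the 9 comparisons with limma and 0 with Fisher's LSD, and at most 1 had an unadjusted p under 0.05 in a comparison. Their median difference lay between −0.14 and 0.12, against −0.03 to 0.03 over all probe sets. The largest single differences were those of Car12. In CA1 its signal was 1.605 higher in rTg4510 than in tTA mice (SE 0.498) and 1.328 higher than in DN mice (SE 0.475). In the DG the difference from DN mice was −1.445 in rTg4510 (SE 0.663) and −1.432 in tTA mice (SE 0.695). Car2 had no call in these comparisons either, so the lack of a call does not mean that a signal was unchanged. Of the 16 probe sets, 13 had a mean signal below the median probe set of the array, a range in which a gene may be expressed below detection. Car1, Car3 and Car13, cytosolic enzymes whose genes lie near Car2, were among those 13.

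Between subfields 1 of the family's 16 probe sets was called for CA1 against CA3, where 4.68% of all probe sets were called, 2 for CA1 against DG (10.9%) and 2 for CA3 against DG (13.9%). Car12, a membrane enzyme with its active site outside the cell as in Car4, was higher in the DG, at a mean of 5.20 against 3.28 in CA1 and 3.21 in CA3. The difference was −1.93 for CA1 minus DG (SE 0.38, limma adjusted p = 0.000369) and −2.0 for CA3 minus DG (SE 0.38, limma adjusted p = 0.000171). Car10, a related protein that lacks the catalytic activity, was higher in CA3, at 3.42 against 2.07 in CA1 (difference −1.35, SE 0.24, limma adjusted p = 0.000257) and 2.11 in the DG (difference 1.31, SE 0.24, limma adjusted p = 0.000126). Car7, a cytosolic enzyme of neurons, was 0.67 higher in CA1 than in the DG (SE 0.17, limma adjusted p = 0.00623). The Car10 means in CA1 and DG and both Car7 means lay below the array medians (2.91 to 3.12), where a transcript may be below detection, so those sizes are uncertain.

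**Figure D5:**
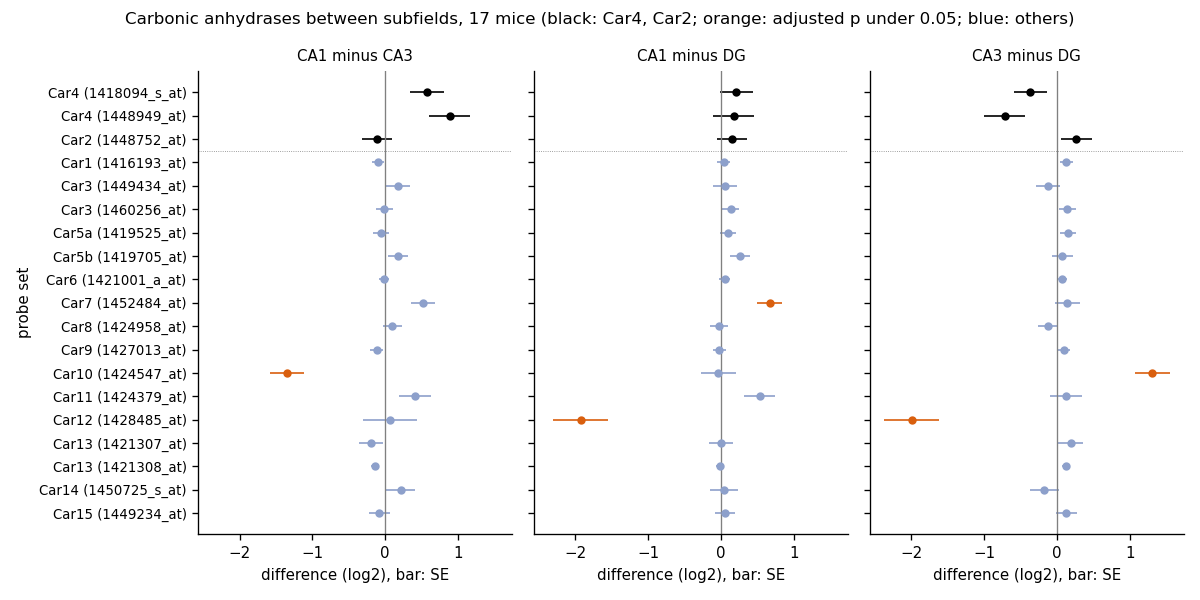
Differences between subfields on the log2 scale (horizontal axes, with SE bars) for each carbonic anhydrase probe set (vertical axis), over 17 mice with the mouse as a block. Car4 and Car2 are in black above the dotted line, probe sets at an adjusted p under 0.05 in orange and the others in blue. Car12 is higher in the DG, Car10 in CA3 and Car7 in CA1 than in the DG.

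Of the list of transporters and channels for bicarbonate, protons, chloride and water, 28 of 41 genes were measured, by 42 probe sets. Between genotypes 0 were called with limma and 0 with Fisher's LSD in any of the 9 comparisons, where 0 to 9 probe sets had an unadjusted p under 0.05, and their median difference lay between −0.02 and 0.10. Between subfields 4 were called for CA1 against CA3 (2 higher in each), 4 for CA1 against DG (all higher in the DG) and 6 for CA3 against DG (1 higher in CA3 and 5 in the DG), where 4.68%, 10.9% and 13.9% of all probe sets were called.

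Slc4a4, the electrogenic sodium bicarbonate cotransporter, was higher in the DG at 3 of its 4 probe sets. At 1421225_a_at its mean was 8.31 in the DG, 3.78 in CA1 and 2.85 in CA3, a difference of −4.53 for CA1 minus DG (SE 0.43, limma adjusted p = 1.24e-09) and −5.46 for CA3 minus DG (limma adjusted p = 1.06e-11). The CA3 mean lay below the array medians, so the size of the second difference is uncertain. At the other probe sets called the DG was higher by 1.31 to 1.58 on the log2 scale. Slc26a4, an anion exchanger, was higher in CA3 than in CA1 by 2.38 (SE 0.36, limma adjusted p = 1.96e-05) and than in the DG by 1.95. Asic2, a proton-gated cation channel, was higher in CA1 than in CA3 by 1.53 (SE 0.22, limma adjusted p = 1.04e-05) and lower in CA3 than in the DG by 0.99. Smaller differences were called for Slc4a10, a neuronal bicarbonate carrier (0.59 higher in CA3 than CA1), for Slc12a5, the neuronal potassium chloride cotransporter (0.53 higher in CA1 than CA3), and for Aqp4, the astrocytic water channel (0.72 higher in the DG than CA1). Aqp4 is also an astrocyte marker, and Gfap, another, had means of 5.31, 5.86 and 7.28 in CA1, CA3 and DG.

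Marker lists of other cells in which these enzymes are known were set beside the members, and 0 genes of the 5 lists were called between genotypes with limma in any comparison. Of the oligodendrocyte list, 13 of 15 genes were measured, and rTg4510 exceeded tTA mice in 13, 11 and 13 of the 13 in CA1, CA3 and DG, with median differences of 0.99, 0.85 and 0.74. The tTA mice exceeded DN mice in 10, 6 and 3 of the 13, with medians of 0.42, −0.17 and −0.25. For comparison with this and the other lists, 46.8%, 44.7% and 49.0% of all probe sets were higher in rTg4510 than in tTA mice. Higher in tTA than in DN mice were 50.3%, 54.2% and 52.8% of all probe sets, in the same order of subfields. As a mean signal over its genes, the list ran from 4.89 to 6.57 in rTg4510, from 3.69 to 5.43 in tTA and from 3.41 to 4.93 in DN arrays of CA1. In the DG it ran from 3.97 to 5.72, from 3.58 to 4.21 and from 3.68 to 5.36, in the same order. Its brightest genes were Mbp, Cldn11 and Olig1, with mean signals in CA1 of 7.64, 6.51 and 6.14, while the defining genes Mog and Aspa lay below the array medians, at 2.63 and 2.32. The part of oligodendrocyte RNA in the Car2 difference between rTg4510 and tTA mice was not tested.

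Of the endothelial list (14 of 15 genes measured), 11, 12 and 12 of the 14 had higher means in rTg4510 than in tTA mice in CA1, CA3 and DG, with median differences of 0.29, 0.32 and 0.27. Between tTA and DN mice 9, 9 and 7 of the 14 were higher in tTA mice, with medians of 0.14, 0.10 and 0.04. Its mean signal ran from 3.14 to 3.42 in DN, from 3.28 to 3.59 in tTA and from 3.49 to 4.42 in rTg4510 arrays of CA1. Its brightest genes were Slc2a1, Slco1c1 and Ly6c1, with mean signals in CA1 of 7.42, 4.98 and 5.05, while Cldn5, Cdh5, Pecam1 and Kdr lay below the array medians, at 2.70, 2.01, 1.90 and 2.05. Of the astrocyte list (10 of 11 measured), 6, 8 and 8 of the 10 were higher in tTA than in DN mice, with medians of 0.15, 0.31 and 0.32, and 10, 7 and 10 were higher in rTg4510 than in tTA mice, with medians of 0.30, 0.14 and 0.29. Choroid plexus markers (4 of 6 measured) had group means of 1.75 to 2.23, below the array medians. Erythrocyte markers (4 of 6 measured) had group means of 2.61 to 3.22, of which Hba-a1, a haemoglobin gene, had means of 6.46, 5.44 and 6.47 in CA1, CA3 and DG, and the other genes lay below the array medians.

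Across the 17 mice of a subfield, with genotype means removed, 36 relations of the 3 probe sets to marker scores and to the Gapdh measure were computed, and none reached an adjusted p under 0.05 in a two-sided permutation test. Car2 correlated with the oligodendrocyte score at r = 0.67 in the DG (rho 0.58, permutation p = 0.0113, adjusted 0.0987), 0.60 in CA3 (rho 0.56, permutation p = 0.0159, adjusted 0.0987) and 0.23 in CA1. Without the 2 mice farthest from the median score r fell to 0.38 in the DG and 0.44 in CA3. The strongest Car2 relation was with the endothelial score in CA3, at r = 0.73 (rho 0.66, permutation p = 0.0037, adjusted 0.0706), and 0.46 without the 2 mice. Its r with the endothelial score was 0.655 in the DG, and with the astrocyte score 0.67 in CA3 and 0.59 in the DG. Without the 2 mice these were 0.71, 0.59 and 0.49. In CA1 Car2 had r = 0.19 with the endothelial and 0.12 with the astrocyte score. Car4 at 1418094_s_at correlated with the oligodendrocyte score in CA1 at r = −0.66 (rho −0.69, permutation p = 0.00642, adjusted 0.077) and −0.61 without the 2 mice. Its r with the Gapdh measure in CA1 was 0.61 (rho 0.36, permutation p = 0.0279, adjusted 0.119) and −0.13 without the 2 mice, so that it rested on them. At 1448949_at the same r was 0.63 (rho 0.56, permutation p = 0.0206, adjusted 0.106) and 0.19 without the 2 mice. For the Gapdh measure in CA1 these 2 were DN mouse 4 (3.20), whose Prnp went against its label, and tTA mouse 4 (1.62). Through these same mice the tTA and DN arrays of CA1 overlapped at 1418094_s_at. No relation was recomputed without the arrays that went against their labels. With the endothelial score neither Car4 probe set had a relation below an adjusted p of 0.248.

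The genes whose signals followed the members most closely over the 51 arrays were found among 11806 others. For Car4 at 1448949_at these were Tuba1c, an alpha-tubulin (r = 0.61), Prss23, a secreted protease (0.61), Tbr1, a transcription factor of excitatory neurons (0.57), Pde4b, a cyclic AMP phosphodiesterase (0.56), and Elovl5, a fatty acid elongase (0.55). With group means removed, they were Tuba1c (0.67), Tnfsf13b (0.63), Ttc39d (0.61), Hoxa2 (0.60) and Pde4b (0.59). For Car2 they were Ldhb, a lactate dehydrogenase subunit (0.69), Ptgds, a prostaglandin synthase (0.67), Mbp, a myelin protein (0.62), Ndufb9, a subunit of respiratory complex I (0.62), and Ptn, a growth factor (0.61). With group means removed, they were Ldhb (0.72), Glud1, glutamate dehydrogenase (0.70), Ptn (0.68), Ndrg2 (0.66) and Fdx1 (0.65). The arrays share mice, subfields and RNA quality, and these correlations were not tested.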

How the data were processed

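RNA of laser-captured layers was amplified, labelled with biotin and hybridised to Affymetrix HT-MG-430A arrays. The values that the authors deposited are RMA signals, background-corrected, normalized between arrays and summarized by probe set, on a log2 scale (the methods speak of anti-log values, which the range of the table does not bear out). The RMA version and the arrays normalized together are not given in the sources used here. RMA sets arrays on a common distribution, so a shift of all genes cannot be seen, and signals of different probe sets cannot be compared as amounts.

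The 90 control probe sets were left out of 22716, and 22626 were tested without a filter. In the platform annotation, 18003 probe sets have 1 gene symbol, 287 have several and 4336 lack one. Prnp was named from the study's supplementary table.

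The members and gene lists were chosen with earlier results of these data known. The genes named are every Car4 and Car2 probe set, other carbonic anhydrases and transport genes that were called (the 5 largest differences per pair of subfields), for each member the 5 genes with the highest r, before and after group means were removed, the brightest markers of each list, and Prnp and Xist. The fainter markers Mog, Aspa, Cldn5, Cdh5, Pecam1 and Kdr, and Gfap, were named after their values were seen.

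Genotypes were compared per subfield with limma 3.58.1 in R 4.3.3, the 3 genotypes fitted together, and subfields over the 51 arrays, blocked by mouse, with Benjamini-Hochberg adjustment over 22626 probe sets and a threshold of 0.05. The labels give 3 arrays to each mouse. With group means removed, the mean r between arrays was 0.0492 within a mouse and −0.0022 between mice. No arrays were identical (highest r 0.979). Relations used 100000 permutations of mice within genotype. A marker score is the mean over genes of the brightest probe set. The fits were tested on simulated data. Alternatives were Fisher's LSD test, median centring, quantile normalization, linear signals, an intensity trend, a filter at the 40th percentile, a random block for the mouse, no block, the arrays against labels left out and each mouse left out. Precision is set by the 5 or 6 mice of a genotype. Car4 and Car2 sequences and genome positions are not given here, since the files name no genome build.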

Additional observations from a re-analysis of the deposited data

How the results depend on the processing

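The 207 Car4 and Car2 differences recomputed under other settings moved by less than the replicate SD with all arrays. Of them 4 changed sign, none with an interval that had left 0. That SD includes the spread of the arrays against labels, so it is a wide limit. At 1418094_s_at in the DG, rTg4510 minus DN moved from 1.568 (SE 0.489, pooled SD 1.027) to 2.504 without the 5 arrays. There the SD of DN arrays fell from 1.06 to 0.413. The random block for the mouse left rTg4510 minus DN in CA1 at 2.717, as in the main fit, so it does not test a shift. Each mouse has all 3 subfields, so no difference could move under the random block or without a block. Nor could rTg4510 minus tTA in CA1 and CA3, which lose no array with the 5 or the 7 left out. The count of 207 therefore overstates how much was tested. Leaving out each mouse changed the sign of 8 of 612 such differences, among which those between the other genotypes could not move. Counts of calls between genotypes were small and moved. Without the 5 arrays against the labels, the counts for rTg4510 against tTA, tTA against DN and rTg4510 against DN were 3, 1 and 4 for CA1, 2, 1 and 4 for CA3, and 2, 13 and 16 for DG. Without the 7 arrays they were 2, 0 and 2 for CA1, 2, 0 and 1 for CA3, and 2, 13 and 16 for DG. With all arrays and the mouse as a random block they were 1, 2 and 1 for CA1, 0, 3 and 1 for CA3, and 0, 3 and 1 for DG. Fisher's LSD called 0 in all. The intensity trend called 1 for rTg4510 against tTA in CA1 and 3 in CA3, where median centring called 0 and quantile normalization 2. Leaving out each mouse gave, in that order, 0 to 3, 0 to 1 and 0 to 4 for CA1, 0 to 2, 0 to 1 and 0 to 4 for CA3, and 0, 0 to 1 and 0 to 1 for DG. The filter left 1 other carbonic anhydrase called between CA1 and DG. Leaving out each mouse gave 1 to 2 between CA1 and CA3. Without the mouse as a block, the unpaired fits called 975, 2265 and 2872 probe sets between CA1 and CA3, CA1 and DG, and CA3 and DG, and the block changed no call of the members there. Among relations without the 2 farthest mice, r turned for Car4 1418094_s_at with the endothelial score in the DG (−0.294), the astrocyte score in CA1 (0.371) and Gapdh in CA1 (−0.13) and the DG (−0.0432), for 1448949_at with the oligodendrocyte score in the DG (−0.054) and Gapdh in CA3 (−0.339), and for Car2 with the astrocyte score (−0.111) and Gapdh (0.247) in CA1. The cause of these shifts was not tested. The number of mice and signals near background limit what can be detected.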
